A study of Mus musculus with 14 samples.

Results

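The genes described here are 10 genes of melanoma dedifferentiation and of the mesenchymal programme: the receptors Axl, Ngfr and Egfr, the transcription factors Sox9, Zeb1, Zeb2, Snai2 and Twist1, and the cadherins Cdh1 and Cdh2. They were chosen by name, and each was read from the probe set annotated with that single gene symbol, the one of highest mean level where a gene had several. The first array design held 9 of the 10 members among 22180 named genes, and the second held all 10 among 19938. Zeb2 had no probe set of a single symbol on the first design and was read on the second alone.

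Tumours grown in C57BL/6 mice from B16-F10 cells, a mouse melanoma line, were profiled from total RNA. The 14 tumours were 7 of subline Res 499 and 2 of subline Res 177, both labelled resistant to radiation with anti-CTLA4, and 5 of the control line, labelled sensitive. Per the labels, the Res sublines were cell lines recovered from unirradiated tumours that had resisted or relapsed after therapy, which was 20 Gy to the other flank on day 8 and the CTLA4 antibody 9H10 on days 5, 8 and 11. Not stated in the labels are whether these tumours were themselves treated, how many clones a subline holds, and whether each tumour came from a separate mouse; the p-values below therefore measure a spread between samples that may be technical in part. The first design held 7 Res 499 tumours, 1 Res 177 tumour and 4 control tumours, and the second held 1 Res 177 tumour and 1 control tumour. The designs were normalized separately and their levels were never pooled. Only differences taken within a design were set side by side.

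Melanoma cells move between a pigmented state, driven by MITF and SOX10, and dedifferentiated states that carry neural crest or mesenchymal genes. AXL, EGFR and NGFR mark such dedifferentiated cells in human melanoma, where they have been tied to drug tolerance and immune escape. The transcription factors of epithelial-mesenchymal transition divide between the states in this lineage. ZEB2 and SNAI2 are made by normal melanocytes, while ZEB1 and TWIST1 go with the dedifferentiated state. Melanoma cells often lose E-cadherin and gain N-cadherin as they leave the epidermis.

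The pigment programme was present in all 12 tumours of the first design. Mitf, the melanocyte master regulator, lay at log2 levels of 11.82 to 12.34 in Res 499 tumours, at 12.06 in the Res 177 tumour and at 11.89 to 12.05 in controls. Sox10, which maintains melanocyte identity, lay at 10.70 to 11.04 in Res 499, 10.84 in Res 177 and 11.03 to 11.23 in controls, and its difference of -0.26 for Res 499 minus control had a limma adjusted p of 0.196. The mean over 16 melanocyte lineage genes ran between 10.86 and 11.31 in Res 499, stood at 11.15 in Res 177 and ran between 10.97 and 11.05 in controls. In Res 499 against control, 11 of the 16 lay above 0 and 5 below, with a median of 0.10 beside 0.005 over all genes. None passed, and 7 had an unadjusted limma p under 0.05, beside 13% of all genes. The extremes were Trpm1 at 0.81 (limma adjusted p = 0.239) and Erbb3 at -1.01 (limma adjusted p = 0.0526). Tumours are mixtures, and the marker means of leukocytes and fibroblasts differed more. The mean of 5 leukocyte markers (Ptprc, Cd53, Laptm5, Coro1a and Itgb2) spanned 6.23 to 8.23 in Res 499, was 7.52 in Res 177 and spanned 6.35 to 6.83 in controls. That of 5 fibroblast markers (Col1a1, Col1a2, Col3a1, Dcn and Lum) spanned 6.52 to 8.92 in Res 499, was 8.27 in Res 177 and spanned 6.99 to 7.94 in controls.

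None of the 9 members measured on the first design passed the test of Res 499 tumours against control tumours. In a limma fit over 16635 genes with Benjamini-Hochberg adjustment, where 0.355% of all genes passed an adjusted p of 0.05, 0 of 9 members passed and their adjusted p-values lay between 0.347 and 0.982. At an unadjusted p under 0.05, 1 of 9 members passed, against 13% of all genes. The log2 difference was above 0 for 6 members and below 0 for 3, with a median of 0.03 against 0.005 over all genes tested. No member had groups that did not overlap, a separation seen in 2.39% of all genes. The members differed instead in how far they spread among the 7 Res 499 tumours.

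Axl, the receptor tyrosine kinase that binds Gas6, had the widest spread. In the 7 Res 499 tumours its lowest, median and highest log2 levels were 7.70, 8.71 and 10.11, and the Res 177 tumour stood at 9.07. The 4 control tumours had 8.22, 7.24, 7.90 and 8.53. The 4 Res 499 tumours of replicates 1 to 4 lay above every control, the other 3 lay within the control range, and the groups overlapped. The means were 8.62 ± 0.82 in Res 499 (SD, n = 7) and 7.97 ± 0.55 in controls (SD, n = 4), a log2 difference of 0.65 (SE 0.40, 95% interval -0.21 to 1.51, limma adjusted p = 0.533). As a fold this is 1.57, with an interval of 0.865 to 2.85. The SD of Axl within Res 499 exceeded that of 98.9% of all genes tested, and its SD within controls exceeded that of 99.0%.

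Egfr, the receptor of epidermal growth factor, was split among the Res 499 tumours. Its lowest, median and highest levels there were 5.49, 6.13 and 6.32, with 6.28 in the Res 177 tumour. The control tumours had 6.04, 5.54, 5.86 and 5.72. Replicates 1, 2, 3 and 5 of Res 499 lay above every control and replicates 6 and 7 below every control, so the groups overlapped at both ends. The difference of the means was 0.17 (SE 0.18, limma adjusted p = 0.765), and the SD of 0.38 within Res 499 exceeded that of 93.5% of genes. Egfr, Ngfr, Zeb1 and Twist1 had mean levels of 5.93, 6.12, 6.23 and 6.37, near the array medians of 5.70 to 5.80. Krt14 and Krt1, keratinocyte genes raised in the Res 177 tumour alone, had means of 5.75 and 5.53 in Res 499. In controls these were 5.87 and 5.57. How far the members near the medians lay above background was not tested, which limits the reading of their splits and directions.

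Ngfr, the low-affinity neurotrophin receptor of neural crest cells, varied little. Its levels in Res 499 had a lowest value of 5.87, a median of 6.13 and a highest of 6.25, the Res 177 tumour had 6.01, and the controls had 6.11, 6.07, 6.13 and 6.30. Of the 7 Res 499 tumours, 5 fell within the control range and replicates 6 and 7 lay below it. The difference was -0.04 (95% interval -0.21 to 0.13, limma adjusted p = 0.880).

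Sox9, a neural crest and hair follicle transcription factor that opposes Sox10 in human melanoma cells, had the lowest adjusted p of the 9 members in Res 499 against control. Its lowest, median and highest levels in Res 499 were 6.76, 8.01 and 8.05, and the Res 177 tumour had 7.54. The controls had 7.31, 7.59, 7.05 and 7.08. There, 6 Res 499 tumours lay above every control, and replicate 5, at 6.76, lay below every control. The means were 7.77 ± 0.46 in Res 499 (SD, n = 7) and 7.26 ± 0.25 in controls (SD, n = 4), a difference of 0.52 (SE 0.22, 95% interval 0.04 to 0.997), or 1.43-fold, and limma gave an unadjusted p of 0.0374 and an adjusted p of 0.347. Without Res 499 replicate 5 the difference was 0.68 and passed, with a limma adjusted p of 0.0322 in a fit that called 0.439% of all genes. The call on Sox9 therefore turned on 1 tumour. With the leukocyte or the fibroblast marker mean in the model the difference was 0.60 (limma adjusted p = 0.445) or 0.56 (limma adjusted p = 0.300), and with both means together it was 0.22 (limma adjusted p = 0.976).

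Snai2 (Slug), a neural crest factor that normal melanocytes need, had levels in Res 499 with a lowest of 8.35, a median of 8.76 and a highest of 9.24. The Res 177 tumour had 8.87, and the controls had 8.47, 8.77, 8.68 and 8.45. Replicates 1, 3 and 4 of Res 499 lay above every control and replicate 5 below every control. The difference was 0.24 (SE 0.16, limma adjusted p = 0.558). Replicate 5 thus held the lowest Res 499 level of both Sox9 and Snai2, and its melanocyte lineage mean of 10.86 was the lowest of the 7.

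Zeb1, a repressor of E-cadherin, differed between Res 499 tumours in both directions. Its lowest, median and highest levels were 5.94, 6.11 and 6.57 in Res 499, against 6.25 in Res 177 and 6.24, 6.32, 6.09 and 6.25 in the controls. Replicates 1 to 3 lay above every control and replicates 5 to 7 below every control. The difference of the means was 0.01 (SE 0.13, limma adjusted p = 0.982), and its direction was not stable: after centring each array on its median it was -0.02.

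Twist1, a mesoderm and neural crest transcription factor, showed no Res 499 tumour outside the control range. Its lowest, median and highest levels were 6.20, 6.40 and 6.54 in Res 499, against 6.40 in Res 177 and 6.48, 6.18, 6.28 and 6.67 in the controls. The difference was -0.05 (95% interval -0.26 to 0.17, limma adjusted p = 0.885).

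Cdh2, which encodes N-cadherin, was the member with the largest difference below 0. Its lowest, median and highest levels in Res 499 were 9.61, 9.73 and 10.27, and the Res 177 tumour had 9.83. The controls had 10.16, 10.42, 10.21 and 10.03. Replicates 4 to 7 of Res 499 lay below every control and replicates 1 to 3 within the control range. The means were 9.90 ± 0.29 in Res 499 (SD, n = 7) and 10.21 ± 0.16 in controls (SD, n = 4), a difference of -0.30 (SE 0.14, 95% interval -0.61 to 0.006, limma adjusted p = 0.394). A second probe set annotated to Cdh2 gave -0.33 for Res 499 minus control and -0.29 for Res 177 minus control.

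Cdh1, which encodes E-cadherin, the adhesion molecule that joins melanocytes to keratinocytes, was the most even member across Res 499 tumours. Its lowest, median and highest levels were 6.67, 6.76 and 6.83 in Res 499, against 6.68, 6.57, 6.76 and 6.85 in the controls, and all 7 Res 499 tumours fell within the control range. The difference was 0.03 (95% interval -0.11 to 0.17, limma adjusted p = 0.884), and only 2.92% of genes had a smaller SD within Res 499. The Res 177 tumour had 7.05, the highest level on the first design. A second probe set annotated to Cdh1 gave 0.01 for Res 499 minus control and 0.17 for Res 177 minus control. Its control mean of 4.12 lay below the level of 4.94 under which genes were left out of the test.

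**Figure D1:**
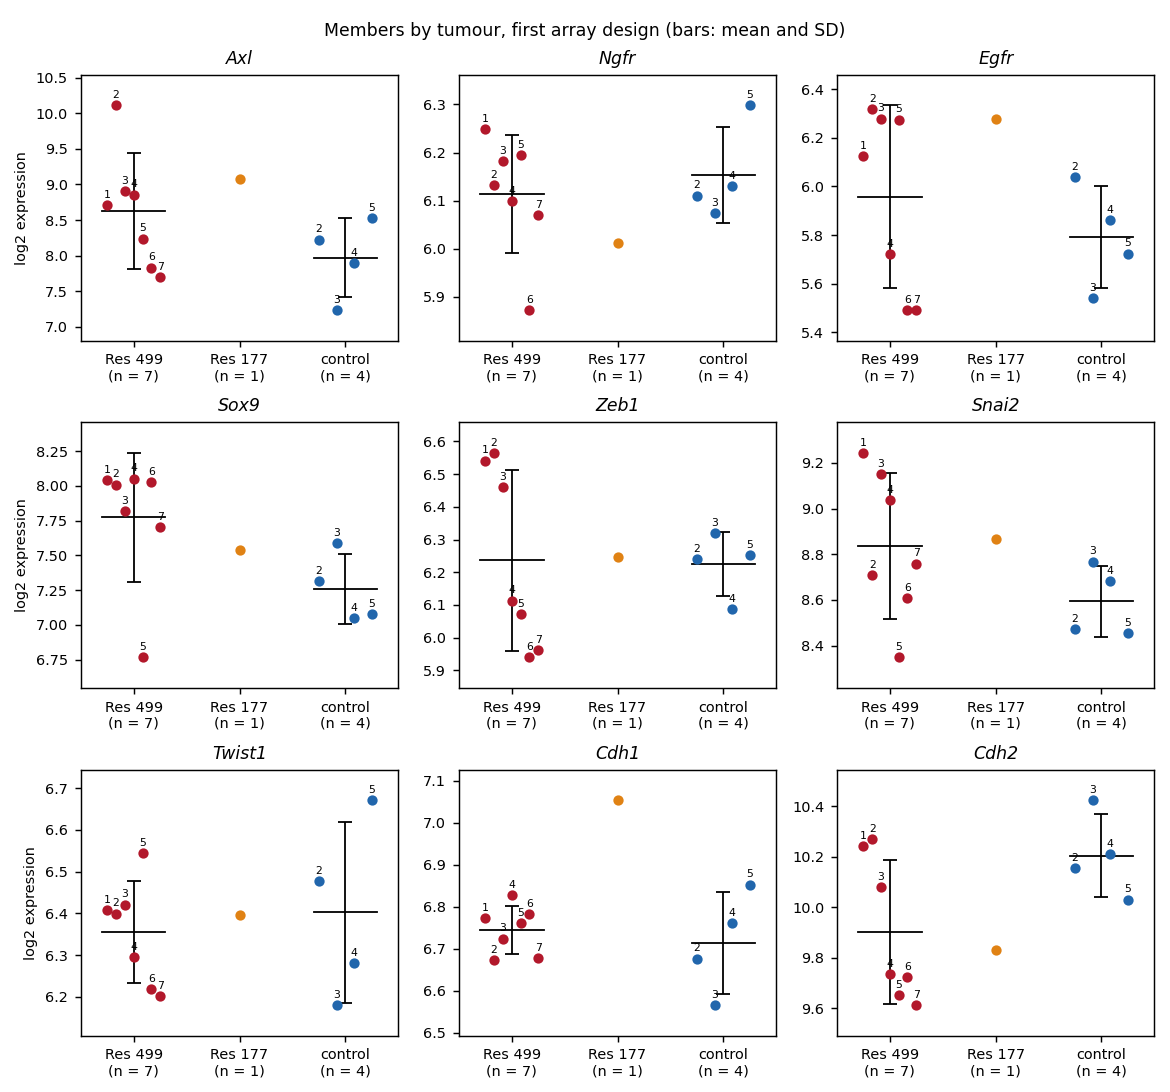
Log2 expression (vertical axis, scaled to each gene) of the 9 members on the first array design, with 1 point per tumour, numbered by replicate where a group holds over 1, and bars for the mean and SD of Res 499 (n = 7) and control (n = 4). Sox9 lies above all controls in 6 of 7 Res 499 tumours and below them in replicate 5, Cdh2 lies below all controls in replicates 4 to 7, and Cdh1 is highest in the Res 177 tumour at 7.05.

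**Figure D2:**
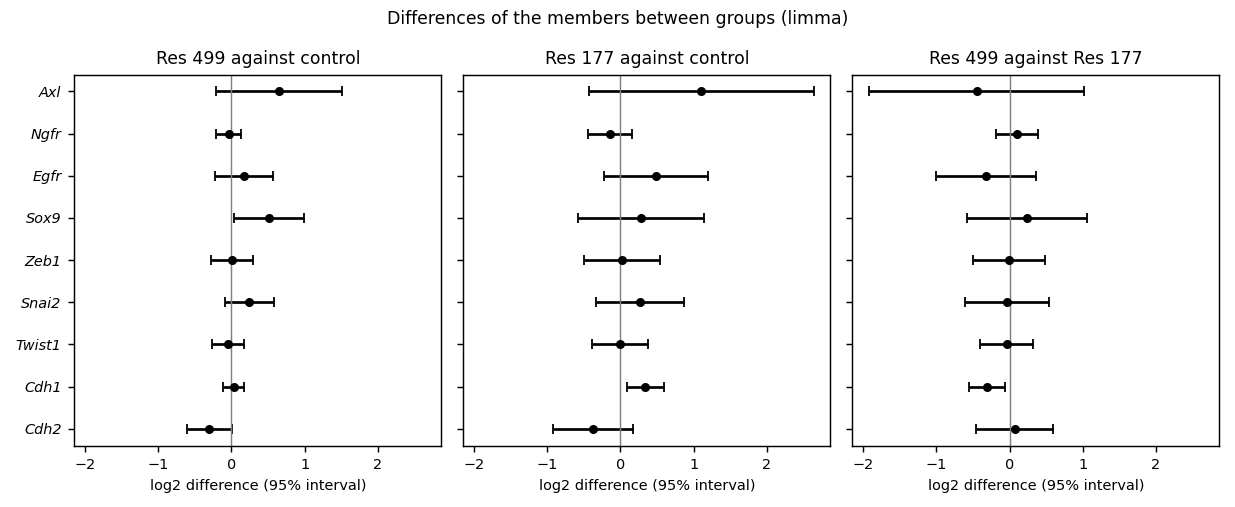
Log2 differences of the 9 members with 95% limma intervals (horizontal axis) for Res 499 minus control, Res 177 minus control and Res 499 minus Res 177 on the first design. For Res 499 minus control the interval excludes 0 for Sox9 alone (0.04 to 0.997), and in the comparisons with the single Res 177 tumour for Cdh1 alone; no member passed after adjustment over all 16635 genes.

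Markers of leukocytes and fibroblasts differed among the Res 499 tumours. In Res 499 against control, 5 of 5 leukocyte markers had differences above 0, with a median of 0.71, as had 11 of 11 macrophage markers, with a median of 0.86, and 4 of 5 fibroblast markers, with a median of 0.46, beside a median of 0.005 over all genes. No gene of these lists passed the adjusted test, and none of the leukocyte or fibroblast markers lay below the level of 4.94 under which genes were left out as dim. The leukocyte mean was 1.35, 1.69, 1.65 and 1.32 above the control mean in Res 499 replicates 1, 2, 3 and 5, and 0.34, 0.27 and -0.31 relative to it in replicates 4, 6 and 7. The tumours in which Egfr lay above every control were those same replicates 1, 2, 3 and 5. Axl lay above every control in replicates 1 to 4. In replicate 4 the leukocyte mean was 0.34 and the fibroblast mean -0.91 relative to the control mean. Axl lay within the control range in replicate 5, where these means were 1.32 and 1.12. In a bulk tumour, fewer cells of a type and less RNA per cell cannot be told apart.

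With the leukocyte mean in the limma model, Axl differed by -0.04 between Res 499 and control (adjusted p = 0.977) in place of 0.65. Egfr then differed by -0.26 (adjusted p = 0.341) in place of 0.17, and Zeb1 by -0.24 (adjusted p = 0.461) in place of 0.01. Cdh2 differed by -0.53 (adjusted p = 0.167) in place of -0.30. Sox9 and Snai2 differed by 0.60 and 0.21 in that fit, and by 0.22 and -0.024 with the leukocyte and fibroblast means together (adjusted p = 0.976 and 0.999). With the fibroblast mean in the model instead, Axl differed by 0.45, Egfr by 0.02, Zeb1 by -0.07 and Cdh2 by -0.38, with limma adjusted p-values of 0.631, 0.954, 0.851 and 0.208. The leukocyte and fibroblast means had a Pearson r of 0.891 over the 12 tumours. The part of these cells in the members' levels was not tested beyond these fits.

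**Figure D3:**
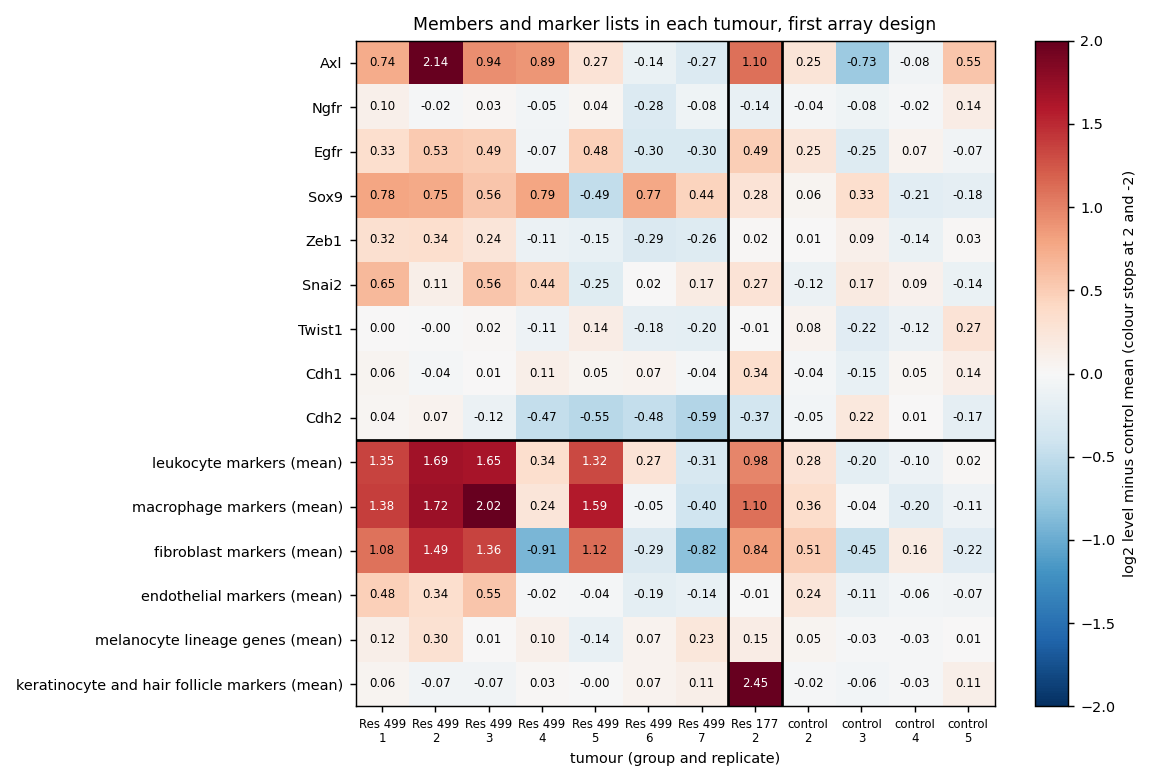
Log2 level minus the control mean (colour and printed value) of the 9 members (above the line) and of the mean of each marker list (below it) in each of the 12 tumours of the first design, Res 499 at the left, Res 177 next and controls at the right. Leukocyte markers exceed the control mean by over 1 in Res 499 replicates 1, 2, 3 and 5, and keratinocyte and hair follicle markers stand out in the Res 177 tumour alone.

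**Figure D4:**
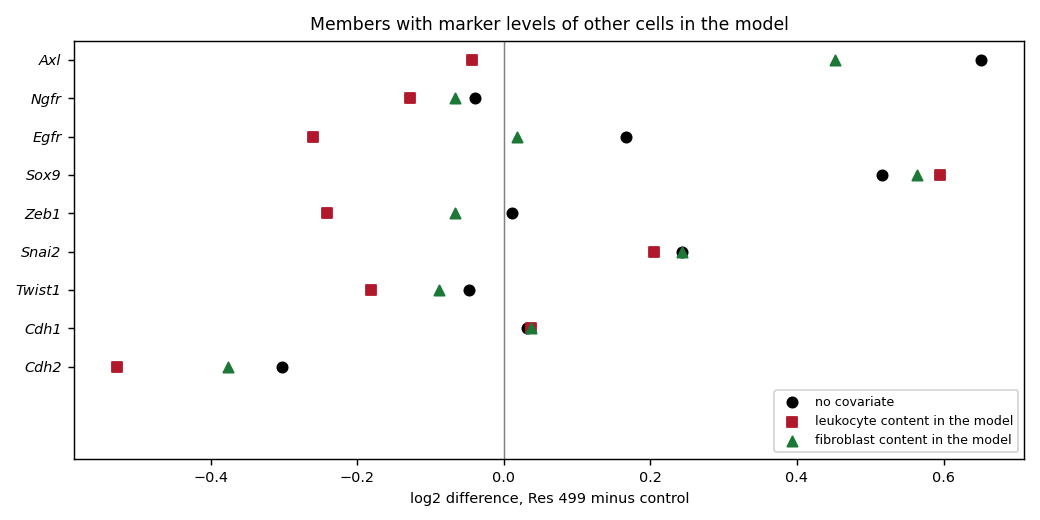
Log2 difference of each member between Res 499 (n = 7) and control (n = 4) tumours (horizontal axis) with no covariate, with the leukocyte marker mean and with the fibroblast marker mean in the limma model. Axl, Egfr and Zeb1 lie above 0 without a covariate and below 0 with the leukocyte mean, while Sox9 and Snai2 stay above 0 and Cdh2 below 0 in all 3 fits.

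The members did not vary as 1 block. Over the 11 Res 499 and control tumours, 29 of the 36 pairs of members had a Pearson r above 0, 9 pairs reached 0.5 and the median was 0.264. These values describe tumours that share their sublines and their mixtures of cells, and they carry no test. The highest were 0.751 for Ngfr with Twist1, 0.743 for Zeb1 with Cdh2, 0.717 for Sox9 with Snai2 and 0.694 for Axl with Egfr, and the lowest was -0.50 for Sox9 with Twist1. Within the 7 Res 499 tumours alone, Zeb1 with Cdh2 had an r of 0.970 and Egfr with Twist1 of 0.918. Next were Axl with Zeb1 at 0.816, Axl with Cdh2 at 0.783 and Egfr with Zeb1 at 0.778. Ngfr with Egfr had 0.770 and Ngfr with Twist1 0.755. Zeb1 and Cdh2 were both highest in replicates 1, 2 and 3, and Ngfr, Egfr and Twist1 were all lowest in replicates 6 and 7.

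Egfr, Ngfr and Twist1 varied together in Res 499, though other pairs of members were as close. Their mean levels of 5.93, 6.12 and 6.37 were near the array medians of 5.70 to 5.80. How far these levels lay above background was not tested. The SD within Res 499 was 0.12 for both Ngfr and Twist1, and 31.6% and 31.9% of genes had a smaller one. The 250 bases before the RefSeq transcription starts of these 3 genes are shown, 5′ to 3′ on the strand of the gene. The RefSeq promoter table held 5 of the 10 members (Axl, Ngfr, Egfr, Zeb2 and Twist1). It did not hold Zeb1 or Cdh2, the closest pair within Res 499. Capitals mark GC boxes, the hexamer GGGCGG on either strand. The windows are, on build GRCm38.p6, chr11:16751953-16752202 on the plus strand for Egfr, chr11:95587699-95587948 on the minus strand for Ngfr and chr12:33957421-33957670 on the plus strand for Twist1.
Egfr: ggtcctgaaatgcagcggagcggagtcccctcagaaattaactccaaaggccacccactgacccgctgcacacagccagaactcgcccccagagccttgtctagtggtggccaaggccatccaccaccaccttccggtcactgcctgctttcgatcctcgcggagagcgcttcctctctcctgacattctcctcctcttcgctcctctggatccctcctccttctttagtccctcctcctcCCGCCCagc
Ngfr: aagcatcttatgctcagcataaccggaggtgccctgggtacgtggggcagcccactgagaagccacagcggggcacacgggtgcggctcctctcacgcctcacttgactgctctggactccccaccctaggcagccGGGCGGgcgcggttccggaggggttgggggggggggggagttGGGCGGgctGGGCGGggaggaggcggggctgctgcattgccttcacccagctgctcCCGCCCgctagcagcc
Twist1: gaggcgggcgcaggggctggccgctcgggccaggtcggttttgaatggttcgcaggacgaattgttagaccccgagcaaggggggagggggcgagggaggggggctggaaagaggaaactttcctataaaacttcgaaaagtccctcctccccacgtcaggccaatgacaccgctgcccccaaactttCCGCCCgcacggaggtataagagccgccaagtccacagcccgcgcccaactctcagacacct
The 3 windows were rich in G and C, at 60.8% in Egfr, 70.4% in Ngfr and 62.4% in Twist1. The GC box occurred once in Egfr, starting 9 bases before the start, 4 times in Ngfr, at 114, 72, 63 and 16 bases, and once in Twist1, at 62 bases. It was found in 32.7% of the 32851 promoter windows of this length in the table. None of the 3 windows held the TEAD motif GGAATG (12.6% of all windows), the AP-1 motif TGANTCA (6.75%) or the E-box CAGGTG bound by Zeb and Snail factors (17.2%), each searched on both strands, and no 2 motif matches overlapped. These matches are letters in a window and were not tied to binding in these tumours.

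The genes most like each member were ranked by Pearson r over the 11 Res 499 and control tumours, among the 16635 tested genes. Left out were predicted gene models, genes named by a clone or accession, small RNAs and olfactory or vomeronasal receptors. The r values are the highest of many over 11 tumours and carry no test. The genes at the top differed from member to member. For Axl they were Uba7 (r = 0.960, Spearman rho = 0.945) and H2-DMa (0.960 and 1.0), and for Egfr they were Pdgfra (0.967 and 0.945) and Syk (0.965 and 0.927). For Sox9 they were Lima1 (r = 0.951) and Cftr (0.928), for Snai2 Tmem71 (0.932) and Arsb (0.915), and for Zeb1 Acsl5 (0.952) and Plxdc2 (0.938). For Cdh2 they were Sema4d (r = 0.964) and Pik3r1 (0.935), for Cdh1 Stk40 (0.925) and Pde4b (0.921), for Ngfr Fam189a2 (0.891) and Dusp7 (0.888), and for Twist1 Nkx2-3 (0.901) and Thap12 (0.900). The gene most like Axl after Uba7, H2-DMa, part of the class II antigen loading machinery, spanned 6.59 to 10.10 in Res 499 and 6.54 to 7.70 in controls. Pdgfra, the platelet-derived growth factor receptor of fibroblasts, spanned 5.50 to 7.23 in Res 499 and 5.54 to 6.57 in controls.

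In the Res 177 tumour measured on the first design, 1 of 9 members lay outside the range of the other 11 tumours, beside 9.86% of all genes. This member was Cdh1, at 7.05 against 6.57 to 6.85. The difference from control was 0.34 (SE 0.12, 95% interval 0.09 to 0.59, limma adjusted p = 1.0), and from Res 499 the difference, Res 499 minus Res 177, was -0.31 (limma adjusted p = 1.0). Against control, 0 of 9 members passed the adjusted test beside 0.21% of all genes, and 1 of 9 had an unadjusted p under 0.05 beside 4.08%. Axl had a difference of 1.10 with an interval of -0.43 to 2.64, Egfr of 0.49, Sox9 of 0.28, Snai2 of 0.27 and Cdh2 of -0.37. The leukocyte, macrophage and fibroblast means of this tumour lay 0.98, 1.10 and 0.84 above the control mean. With the leukocyte mean in the limma model, Axl differed by 0.35 between Res 177 and control, Egfr by 0.024, Cdh2 by -0.62, Sox9 by 0.37, Snai2 by 0.23 and Cdh1 by 0.35, with adjusted p-values of 1.0. In all, 6 of 9 members lay outside the control range in this tumour, beside 39.9% of all genes. This comparison shares its controls with the one of Res 499. Between the resistant sublines themselves, 0 of 9 members passed for Res 499 against Res 177 beside 0.234% of all genes, with 1 of 9 at an unadjusted p under 0.05 beside 2.93%.

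The same Res 177 tumour had high levels of genes of keratinocytes and hair follicles, cells that are themselves rich in E-cadherin. Of 12 listed markers, 9 were tested and 9 of 9 were higher in Res 177 than in control, with a median difference of 3.01. Over all genes the median was 0.01 and 53.3% were higher. These values concern 1 tumour and not the subline. Krt17, a keratin of hair follicles, differed by 3.59 and Dsc3, a desmosomal cadherin, by 3.25. The mean over the list was 7.50 in Res 177, 4.98 to 5.17 in Res 499 and 4.99 to 5.17 in controls, and Krt15 and Dsg3 were among the dim genes left out of the test. The part of these cells in the Cdh1 level was not tested. Of 16 tested epithelial genes outside that list, 12 lay above 0 and 4 below in Res 177 against control, with a median of 0.18. Over all genes 53.3% lay above 0, with a median of 0.01. Rab25, a small GTPase of epithelial cells, was the highest at 0.44 (limma adjusted p = 0.628).

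On the second design, Axl was again the member with the largest difference between the Res 177 and the control tumour. With 1 tumour a group there was no test. Axl had 9.88 in the Res 177 tumour and 9.27 in the control tumour, a difference of 0.61, and was the 1 of 10 members past a log2 difference of 0.5 either way, beside 5.75% of all genes. Sox9 had 8.20 in Res 177 and 7.79 in control, Snai2 8.47 in Res 177 and 8.06 in control, and Cdh1 7.23 in Res 177 and 6.96 in control. Zeb2, the factor of the melanocytic state, had 10.99 in Res 177 and 11.11 in control, a difference of -0.13. Ngfr had 7.15 in Res 177 and 7.19 in control, and Cdh2 had 10.66 in Res 177 and 10.81 in control. Egfr, Twist1 and Zeb1 differed by 0.25, 0.22 and 0.06. In all, 7 of 10 members were higher in Res 177, with a median of 0.23, where 57.5% of all genes were higher and the median was 0.03. On this design, too, 12 of 12 keratinocyte and hair follicle markers, 5 of 5 leukocyte markers and 11 of 11 macrophage markers were higher in the Res 177 tumour, with medians of 1.14, 0.95 and 1.21. Their part in the members' differences was not tested.

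**Figure D5:**
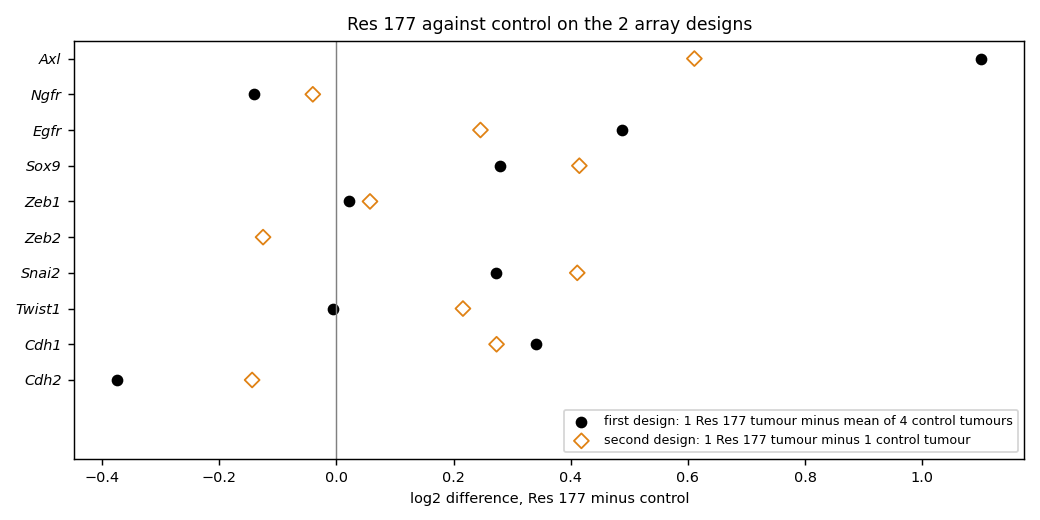
Log2 difference of each member between Res 177 and control (horizontal axis) on the first design (1 Res 177 tumour minus the mean of 4 controls, filled circles) and on the second (1 tumour each, open diamonds). Of the 9 members on both designs, 8 have the same sign, Axl is farthest above 0 on both, and Zeb2 is on the second design alone.

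Pooled by the response label, the 8 resistant tumours of the first design were set against the 4 sensitive ones, and no member passed. In the 2-level limma fit 0 of 9 members passed beside 0.613% of all genes, and 2 of 9 had an unadjusted p under 0.05 beside 13.4%. These were Sox9, with a difference of 0.49 (SE 0.21, limma adjusted p = 0.341), and Cdh2, with -0.31 (SE 0.13, limma adjusted p = 0.336). Axl differed by 0.71 (limma adjusted p = 0.455), Snai2 by 0.25 and Egfr by 0.21. Without Res 499 replicate 5, Sox9 passed here as well, at 0.63 (limma adjusted p = 0.0441, 0.673% of all genes called). The tumours are those of the subline comparisons, so this is no second set of data.

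Partners of the members were read from lists. Of 4 AXL ligands and TAM receptors, 3 lay above 0 in Res 499 against control and none passed; the ligand Gas6 differed by 0.47 (limma adjusted p = 0.635) and the receptor Tyro3 by -0.10. Of 5 tested neurotrophins and Ngfr partners, 3 lay above 0 and none passed, with the highest value for the receptor Ntrk3 (0.26) and the lowest for the adaptor Maged1 (-0.05). Of 7 tested EGFR ligands and ERBB receptors none passed in Res 499 against control, and 1 passed in the pooled comparison, with a difference below 0. That gene was Erbb3, the neuregulin receptor of melanocytes. Its levels had a lowest value of 8.94, a median of 9.32 and a highest of 9.81 in Res 499 and 9.39 in Res 177, against 9.89 to 10.87 in controls. All 7 Res 499 tumours lay below every control, where 2.39% of all genes had groups that did not overlap. The ligand Tgfa of the same list was also below every control in all 7. Its levels were 5.40 to 5.67 in Res 499 and 5.81 to 6.20 in controls. For Erbb3 the difference was -1.01 (limma adjusted p = 0.0526). Resistant minus sensitive was -1.01 (limma adjusted p = 0.0328), in a fit that called 0.613% of all genes. With the leukocyte and fibroblast means together in the model, the pooled comparison called 0 genes. Those 2 means had a Pearson r of 0.891 over 12 tumours, which lowers precision for every gene. The 0 calls are therefore not a result particular to Erbb3.

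No other listed gene of the mesenchymal or epithelial programme passed the adjusted test in Res 499 against control. Of 8 other transcription factors of epithelial-mesenchymal transition, 3 lay above 0 and 5 below in Res 499 against control, none passed, and the extremes were Prrx1, a mesenchymal homeobox factor, at 0.29 and Tcf4 at -0.16. Of 24 tested mesenchymal and invasive melanoma genes, 11 lay above 0 and 13 below, with a median of -0.05, and none passed. Tgfbi, a matrix protein induced by TGF-beta, was the highest at 1.16 (limma adjusted p = 0.421). Tgfb2, a TGF-beta ligand, was the lowest at -0.67 (limma adjusted p = 0.0770); its levels ran between 7.13 and 7.63 in Res 499, stood at 7.35 in Res 177 and ran between 7.52 and 8.37 in controls. In the pooled comparison Tgfb2 was the 1 of 24 that passed, at -0.67 (limma adjusted p = 0.0490), beside 0.613% of all genes. That comparison called 0 genes with the leukocyte and fibroblast means together in the model, which is not a result particular to Tgfb2. In Res 499 against control, 7 of 16 tested epithelial genes lay above 0 and 9 below, and none passed. The extremes were the factor Grhl1 at 0.05 and the tight junction protein Tjp1 at -0.32. Of 6 tested cadherin partners, 4 lay above 0, none passed, and the extremes were the endothelial cadherin Cdh5 at 0.13 and plakoglobin (Jup) at -0.28.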

How the data were processed

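Total RNA of 14 mouse tumours was hybridised to Affymetrix whole-transcript arrays of 2 designs. Each probe set has a deposited log2 value in each tumour; per the submitters' processing notes, the authors used RMA and oligo, with no version stated. Genome build: not given in the sources used here. The log2 scale was inferred from the range of the values. Groups follow the subline label, and replicate numbers follow accession order and pair nothing. No 2 arrays held identical values.

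Probe sets were named through the platform annotation, and of the 41345 on the first design 23521 had 1 gene symbol, 1814 several and 16010 none; on the second these were 21789, 1621 and 12146 of 35556. The members, lists and tests were chosen with earlier results of these data known. The 25% of genes lowest by mean (below 4.94) were left out, and 16635 genes were tested with limma 3.58.1 (R 4.3.3; lmFit, eBayes, Benjamini-Hochberg, threshold 0.05) in 1 fit of 3 groups, and in a second fit of resistant against sensitive. The spread for the single Res 177 tumour is that of the other groups. Named beside the members are, per list, up to 4 called genes by size or else the highest and lowest difference, and the 2 genes most like each member; for marker lists of other cells mainly counts and levels are given. The number of arrays limits the precision. Alternatives covered the filter, probe set choice, centring, eBayes settings, array weights, marker covariates, the arrays in the fit, subline weights and leaving out each tumour; leukocyte and fibroblast covariates together were added after the data were seen. Promoters are RefSeq windows of GRCm38.p6.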

Additional observations from a re-analysis of the deposited data

Results flagged for a closer look

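Sox9 in Res 499 replicate 5 lay far from the other Res 499 tumours. Its log2 level there was 6.76, the lowest of 7, and its gap to the nearest Res 499 tumour was 0.729 of the whole range of the group. Of 18 groups checked over the 9 members, this was the 1 past the 95% critical value of Dixon's test; by its construction that value marks about 1 group in 20 by chance, a rate that was not measured on these data.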

How the results depend on the processing

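Over members, comparisons and settings, 708 refitted differences of single members were compared with the main ones; 657 kept the direction and the side of the threshold, 49 turned in direction with no call on either side, and in 2 Sox9 passed where it had not. Those 2 leave out Res 499 replicate 5, which left 1 member called in either comparison; leaving out any other tumour left 0 called. Over the tumours left out Sox9 ran between 0.45 and 0.68 in Res 499 against control and between 0.42 and 0.63 in resistant against sensitive. With the leukocyte mean in the model, Res 499 minus control was -0.043 for Axl, -0.26 for Egfr and -0.24 for Zeb1, and resistant minus sensitive was -0.0010 for Axl, -0.23 for Egfr and -0.24 for Zeb1. With leukocyte and fibroblast means together, chosen after seeing the data, Res 499 minus control was -0.58 for Axl, -0.14 for Egfr, 0.22 for Sox9, -0.024 for Snai2, -0.029 for Cdh1 and -0.35 for Zeb1, and resistant minus sensitive was -0.37 for Axl, -0.059 for Egfr, 0.20 for Sox9 and -0.34 for Zeb1. Zeb1 changed sign most often. With the fibroblast mean it was -0.066 in Res 499 minus control, -0.13 in Res 177 minus control, 0.063 in Res 499 minus Res 177 and -0.072 in resistant minus sensitive. Centring each array on its median gave Zeb1 -0.024, -0.042, 0.018 and -0.026 in the same order, and Cdh1 -0.0031 in Res 499 minus control. With the leukocyte mean Zeb1 was -0.25 in Res 177 minus control and 0.012 in Res 499 minus Res 177. Array weights gave Twist1 0.021 in Res 177 minus control and Snai2 0.040 in Res 499 minus Res 177. Leaving out each tumour in turn, Res 499 minus control ran between -0.017 and 0.078 for Cdh1, -0.066 and 0.0090 for Ngfr, -0.12 and 0.042 for Twist1, and -0.044 and 0.061 for Zeb1. Res 177 minus control ran between -0.080 and 0.083 for Twist1 and -0.024 and 0.052 for Zeb1, and Res 499 minus Res 177 between -0.097 and 0.052 for Snai2 and -0.065 and 0.040 for Zeb1. Resistant minus sensitive ran between -0.12 and 0.047 for Twist1 and -0.034 and 0.055 for Zeb1. The causes were not tested.

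The number of genes called moved more than the members did. Against 59 genes in Res 499 against control, array weights gave 356, the leukocyte mean 27 and both means 0. Leaving out a tumour gave 6 to 196 there: 24, 196, 14, 18, 23 and 37 without Res 499 replicates 1, 2, 3, 4, 6 and 7, and 11, 22 and 6 without control replicates 2, 3 and 4. Against 102 genes in resistant against sensitive, array weights gave 330, the leukocyte mean 37, equal weight for the sublines 42 and both means 0. Leaving out a tumour gave 9 to 141, with 42, 35, 41, 58 and 42 without Res 499 replicates 1, 3, 4, 6 and 7, and 12, 37 and 9 without control replicates 2, 3 and 4. With no filter on dim genes Res 177 against control called 101 genes in place of 35, and Res 499 against Res 177 called 113 in place of 39; with the lowest 50% of genes left out each called 2. No paired analysis was possible because replicate numbers follow accession order and pair no tumours. A single Res 177 tumour per design limits every value of that subline.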
